A study of Mus musculus with 6 samples.

Results

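Kupffer cell markers are the 9 genes Clec4f, Vsig4, Timd4, Marco, Cd5l, Csf1r, Adgre1, Cd163 and Folr2, taken by gene name from a table of 54086 features measured in mouse liver. All 9 were found, and all 9 were among the 11086 features that were tested because their mean over the 6 libraries reached 1 FPKM. The table compares libraries of Mettl3 flox/flox mice (n = 3 libraries), which carry the floxed alleles and serve as controls, with those of hepatocyte-specific Mettl3 knockout mice (HKO, n = 3 libraries). Whether the libraries of a group come from separate mice is not stated. All mice were 8 weeks old and fed normal chow, and both groups are whole liver, so cells other than hepatocytes are present in each library and are not the target of the deletion. The sources used here do not name the Cre driver, the deleted exons or the sex of the mice. FPKM count fragments relative to gene length and sequencing depth, and each value below is a level in FPKM unless it is called a log2 fold change, which is on log2(FPKM + 1), HKO minus flox/flox. Groups are given as mean ± SD over 3 libraries, and values by library are in the order of replicates 1 to 3.

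Kupffer cells are the resident macrophages of the liver. They sit in the sinusoids, the liver's capillaries, where they take up bacteria, dying cells, aged red cells and free haemoglobin from the blood. Their survival depends on the receptor Csf1r, and their identity genes are kept on by the transcription factors of macrophages together with signals from the surrounding endothelial cells, stellate cells and hepatocytes. Results are given with and without flox/flox replicate 2, the control library in which all 9 markers were lowest.

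Depth was similar in the 6 libraries, with 16529358 to 18556076 reads rebuilt from the FPKM. The 3 controls read 1.88, 2.17 and 1.98 FPKM for Mettl3, the targeted gene, and the 3 HKO libraries 2.45, 2.14 and 2.06 FPKM (limma adjusted p = 0.582). A value for the whole gene includes any exons that the deletion leaves and the RNA of cells that keep the gene, so it does not check the labels, on which every direction below rests. The tissue label was borne out by albumin, at 9905 to 50179 FPKM. FPKM summed to 453837 to 542601 in flox/flox and to 318212 to 360226 in HKO libraries, because the deposited values are not scaled to each library's own total. The choice of scaling moves all values in a way that follows the genotype.

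Levels of 8 of the 9 markers were higher in all 3 HKO libraries than in any flox/flox library, and Cd163 was the exception. Groups that did not overlap with HKO higher were found for 16.8% of all tested features. The ratio of mean HKO to mean flox/flox FPKM was 2.14 to 5.76 for the 8 markers and 1.498 for Cd163. At limma's Benjamini-Hochberg adjusted p under 0.05 over all tested features, 3 of 9 markers rose (Marco, Csf1r and Folr2), none fell and 6 did not pass, where 5.95% of all tested features were called higher and 6.86% lower. Folr2, at a mean of 0.848 FPKM in the controls, reached the filter of 1 FPKM through the HKO libraries. Being tested already favoured its rise, so its place in these counts is a description only. The median log2 fold change of the 9 markers was 1.33, against -0.06 over all tested features, and the log2 fold change was above 0 for 9 of 9 markers and for 43.6% of all tested features. Of the 9 markers 8 had an unadjusted p under 0.05, as did 33.8% of all tested features in either direction. In bulk tissue, more cells of a type and more RNA per cell cannot be told apart.

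**Figure D1:**
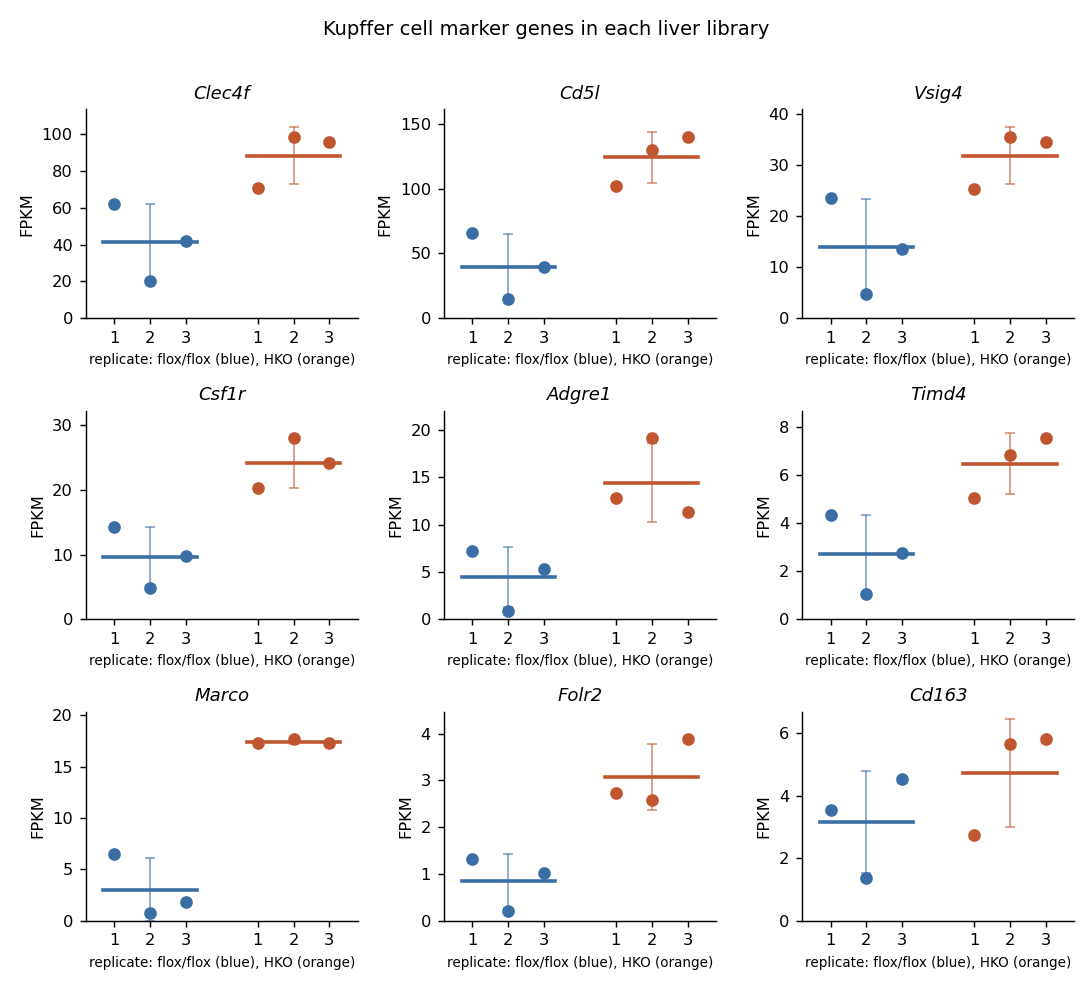
FPKM of each of the 9 marker genes (vertical axis, linear from 0) in flox/flox replicates 1 to 3 (blue) and HKO replicates 1 to 3 (orange), with group means as lines and SD as bars. Flox/flox replicate 2 is the lowest library for all 9 genes, the groups overlap for Cd163 alone, and Marco stands between 17.3 and 17.7 FPKM in the 3 HKO libraries.

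The lectin gene Clec4f (ENSMUSG00000014542, GRCm38.p6 chromosome 6, 83644542 to 83656187, minus strand) encodes a carbohydrate-binding receptor that in mice is largely restricted to Kupffer cells. The 3 controls read 61.9, 20.1 and 42.2 FPKM and the 3 HKO libraries 70.7, 98.7 and 95.8 FPKM. The groups did not overlap, and flox/flox replicate 1 lay closer to HKO replicate 1 than to flox/flox replicate 2. The log2 fold change was 1.20 (SE 0.39, limma adjusted p = 0.0850).

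Vsig4 (chromosome X, 96247203 to 96293438, minus strand) encodes a complement receptor with which Kupffer cells capture opsonised bacteria. Control libraries held 23.6, 4.83 and 13.6 FPKM of it, and HKO libraries 25.4, 35.6 and 34.5 FPKM. This was the narrowest gap between the groups in relative terms among the 8 markers whose groups were apart. The log2 fold change was 1.34 (SE 0.49, limma adjusted p = 0.110).

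Timd4 (chromosome 11, 46810800 to 46844332, plus strand) encodes a phosphatidylserine receptor for the uptake of dying cells, and in mice it marks long-resident Kupffer cells. Its controls read 4.33, 1.05 and 2.75 FPKM, below the 5.07, 6.83 and 7.55 FPKM of the HKO libraries. Again flox/flox replicate 1 came near HKO replicate 1 without reaching it. The log2 fold change was 1.10 (SE 0.34, limma adjusted p = 0.0768).

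Cd5l (chromosome 3, 87357881 to 87371073, plus strand) encodes a secreted scavenger protein that supports macrophage survival. Levels of 65.5, 14.5 and 39.1 FPKM in the controls compared with 102, 129.6 and 140.03 FPKM in the HKO libraries. The lowest HKO library was well above the highest flox/flox library. The log2 fold change was 1.84 (SE 0.50, limma adjusted p = 0.0556), the second largest of the 9.

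Marco (chromosome 1, 120474538 to 120505024, minus strand) encodes a scavenger receptor with a collagen-like stalk that binds bacteria and particles. The controls read 6.47, 0.778 and 1.81 FPKM, and the HKO libraries 17.3, 17.7 and 17.3 FPKM. The HKO libraries were nearly equal, and the flox/flox libraries spread 8.32-fold between replicates 1 and 2. Marco rose by 2.46 on the log2 scale (SE 0.48, limma adjusted p = 0.0285), the largest value of the set, from 3.02 ± 3.03 to 17.4 ± 0.240 FPKM.

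Among the receptors of wider macrophage use, Csf1r (chromosome 18, 61105572 to 61132149, plus strand), the receptor for the macrophage growth factors Csf1 and Il34, read 14.2, 4.91 and 9.82 FPKM in the controls. The HKO libraries read 20.2, 28.0 and 24.0 FPKM of Csf1r, so that each HKO library lay above each control. Csf1r rose by 1.33 on the log2 scale (SE 0.34, limma adjusted p = 0.0488), close to the threshold. Its span and that of Hmgxb3 on the other strand share 871 bases, and since the sources used here do not say whether counting used strand, reads from that stretch are uncertain.

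Adgre1 (chromosome 17, 57358686 to 57483529, plus strand) encodes the adhesion receptor recognised by the classic mouse macrophage antibody. Controls held 7.20, 0.943 and 5.30 FPKM, and HKO libraries 12.8, 19.2 and 11.3 FPKM. The control libraries were split, with replicate 2 far below the other two. The log2 fold change was 1.70 (SE 0.53, limma adjusted p = 0.0767).

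Folr2 (chromosome 7, 101839988 to 101857194, minus strand), the folate receptor of resident macrophages, was the least abundant marker by group mean. Its controls read 1.31, 0.211 and 1.02 FPKM, and all HKO libraries were higher at 2.74, 2.59 and 3.88 FPKM. The flox/flox replicate 2 value rests on 5 reads (exact 95% Poisson interval 1.62 to 11.7 reads, for counting error only), and the HKO values rest on 73 to 134 reads. The span of Folr2 shares 2784 bases with the antisense gene Gm10602, which averaged 0.147 FPKM. Folr2 rose by 1.18 on the log2 scale (SE 0.26, limma adjusted p = 0.0380). Its control mean of 0.848 FPKM was under the filter of 1 FPKM, which Folr2 reached through the HKO libraries.

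Cd163 (chromosome 6, 124304656 to 124330527, plus strand) encodes the receptor that clears haemoglobin bound to haptoglobin. Here the controls read 3.56, 1.37 and 4.55 FPKM and the HKO libraries 2.73, 5.65 and 5.82 FPKM. The groups overlapped, since HKO replicate 1 lay below flox/flox replicates 1 and 3. The difference on the log2 scale was 0.50, with a 95% interval of -0.38 to 1.38 (SE 0.37, limma adjusted p = 0.384), so a change of more than 2-fold in HKO is within the interval.

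**Figure D2:**
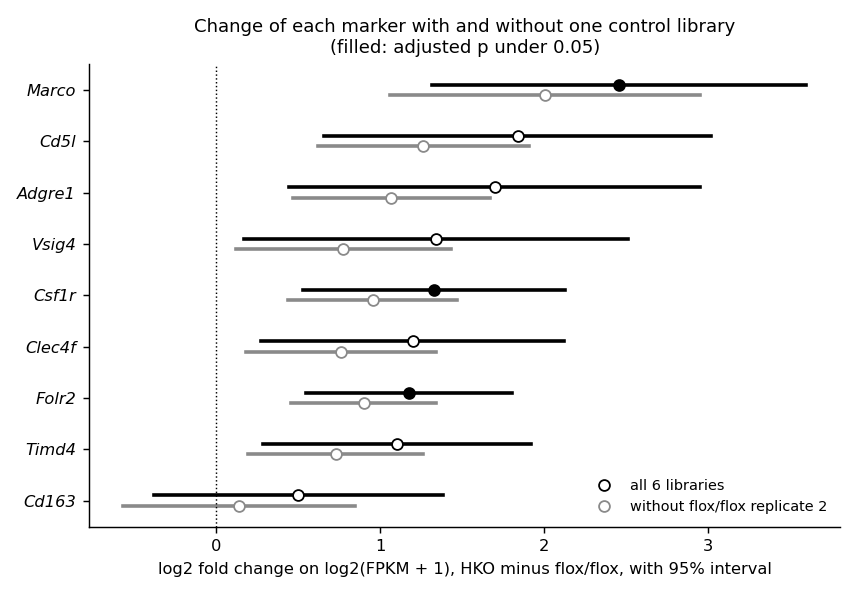
Log2 fold change of each marker on log2(FPKM + 1), HKO minus flox/flox (horizontal axis), with its 95% interval from limma, for all 6 libraries (black) and without flox/flox replicate 2 (grey). Filled points passed an adjusted p under 0.05 (Marco, Csf1r and Folr2 with 6 libraries, none without replicate 2), and all 18 points lie above 0.

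Without flox/flox replicate 2 the same 8 markers had no overlap between the groups, where 20.5% of all tested features did with HKO higher. The ratio of mean HKO to mean flox/flox FPKM was then 1.70 to 4.20 for these 8 and 1.17 for Cd163. None of the 9 passed by limma at an adjusted p under 0.05, 8 had an unadjusted p under 0.05 (29.5% of all tested features), and voom on rebuilt reads called 2 of the 9 markers. Of all tested features 1.85% were called higher and 1.47% lower in that comparison, and 44.1% had a log2 fold change above 0, as did 9 of 9 markers. The log2 fold changes were 2.01 for Marco (SE 0.39, limma adjusted p = 0.0523), 1.26 for Cd5l, 1.07 for Adgre1, 0.95 for Csf1r and 0.90 for Folr2. Those of Vsig4, Clec4f and Timd4 were 0.77, 0.76 and 0.73, and that of Cd163 was 0.14 (limma adjusted p = 0.781). The median over the 9 markers was 0.90, against -0.06 over all tested features. As flox/flox replicate 2 was the lowest control for all 9 markers, leaving it out had to lower the fold change of each. The standard error was also lower for each of the 9, for example 0.25 in place of 0.53 for Adgre1.

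The calls depended on single libraries and on the scaling. No marker passed without flox/flox replicate 3 or without any of HKO replicates 1, 2 and 3 (limma, smallest adjusted p of a marker 0.0788 to 0.0851), with 5 to 8 markers at an unadjusted p under 0.05. In the same order of omissions, 17, 37, 65 and 233 of all 11086 tested features were called higher. Without flox/flox replicate 1, 7 markers passed, and 718 of all 11086 tested features were called higher. With each library scaled to its rebuilt total, 8 of 9 rose and Cd163 did not pass (limma adjusted p = 0.143), and the median over the 9 markers was 1.71 against 0.26 over all tested features. In that setting 2132 of all 11086 tested features were called higher.

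The flox/flox libraries differed among themselves in a shared order. Replicate 2 was the lowest of the 3 controls for 9 of 9 markers, as for 35.9% of all tested features, and replicate 1 was the highest for 8 of 9, as for 43.5% of all tested features. Cd163 was the exception, with replicate 3 highest. Replicate 1 exceeded replicate 2 by 2.59-fold for Cd163, 2.90-fold for Csf1r and 3.09-fold for Clec4f, and by up to 8.32-fold for Marco, with a median of 4.51 over the 9 markers and 1.03 over all tested features. In HKO the markers had no shared order: replicate 1 was lowest for Clec4f, Vsig4, Timd4, Cd5l, Csf1r and Cd163, replicate 2 for Folr2 and replicate 3 for Adgre1 and, by a small margin, Marco.

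The order of levels per gene length also differed between the groups. In HKO, Cd5l led in all 3 libraries with a mean of 124 FPKM, followed by Clec4f at 88.4, Vsig4 at 31.8, Csf1r at 24.1, Marco at 17.4, Adgre1 at 14.4, Timd4 at 6.48, Cd163 at 4.73 and Folr2 at 3.07 FPKM. Neighbours whose HKO values overlapped were Vsig4 and Csf1r, Marco and Adgre1, Timd4 and Cd163, and Cd163 and Folr2. In flox/flox the order was Clec4f (41.4 FPKM), Cd5l (39.7), Vsig4 (14.0), Csf1r (9.65), Adgre1 (4.48), Cd163 (3.16), Marco (3.02), Timd4 (2.71) and Folr2 (0.848), and the values of every neighbouring pair overlapped. Marco thus stood 6th to 8th of 9 in each flox/flox library and 5th or 6th in each HKO library.

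Ratios within a library do not depend on its scaling. The ratio of Marco to Clec4f was 0.105, 0.0388 and 0.0428 in flox/flox replicates 1 to 3 and 0.244, 0.179 and 0.180 in HKO replicates 1 to 3, without overlap. The ratio of Cd5l to Clec4f was 0.903 ± 0.169 in flox/flox and 1.41 ± 0.0822 in HKO, also without overlap, and the ratios of Csf1r and Folr2 to Clec4f were likewise apart. Those of Vsig4, Timd4, Adgre1 and Cd163 overlapped, with Cd163 the only marker whose mean ratio was lower in HKO (0.0522 ± 0.0119 against 0.0779 ± 0.0264). Over these 8 ratios the two-sided exact permutation p was 0.1 where the groups were apart, the smallest that 3 against 3 libraries allow, and 0.2 after Benjamini-Hochberg adjustment, so no ratio could pass.

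**Figure D3:**
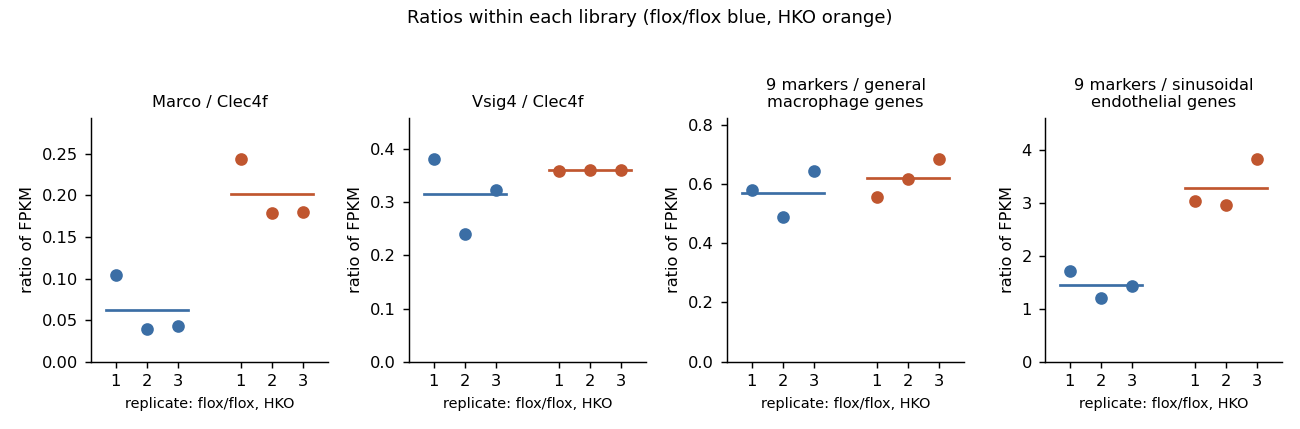
Ratios of FPKM within each library (vertical axes, linear from 0) for flox/flox (blue) and HKO (orange) replicates 1 to 3, with group means as lines. Marco over Clec4f is apart between the groups (0.0388 to 0.105 against 0.179 to 0.244), as is the summed level of the 9 markers over 11 endothelial genes, whereas Vsig4 over Clec4f and the 9 markers over 15 general macrophage genes overlap.

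The 250 bases before the RefSeq start of Marco, Cd5l and Vsig4 are shown because Marco and Cd5l had the largest differences and Vsig4 a more modest one, and because in these 3 the RefSeq start is that of the deposited gene. The sequences are from RefSeq (GRCm38.p6), each on the strand of its gene, 5′ to 3′. Capitals mark GAGGAA, a core of the binding site of the macrophage factor PU.1 (encoded by Spi1), or its reverse complement TTCCTC, and TGCTGA, one arm of the palindromic site bound by Maf factors, or its reverse complement TCAGCA. The windows are chr1:120505025-120505274 (minus strand) for Marco, chr3:87357631-87357880 (plus strand) for Cd5l and chrX:96293439-96293688 (minus strand) for Vsig4.
Marco: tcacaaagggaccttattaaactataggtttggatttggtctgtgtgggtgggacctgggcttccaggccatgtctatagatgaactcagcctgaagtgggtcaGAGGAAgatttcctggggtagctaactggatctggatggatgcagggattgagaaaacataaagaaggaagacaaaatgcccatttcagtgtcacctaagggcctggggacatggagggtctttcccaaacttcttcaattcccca
Cd5l: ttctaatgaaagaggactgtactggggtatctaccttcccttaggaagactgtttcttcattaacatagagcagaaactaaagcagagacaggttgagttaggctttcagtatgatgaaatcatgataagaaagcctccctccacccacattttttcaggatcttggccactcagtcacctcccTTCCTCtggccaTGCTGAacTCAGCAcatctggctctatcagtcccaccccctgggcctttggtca
Vsig4: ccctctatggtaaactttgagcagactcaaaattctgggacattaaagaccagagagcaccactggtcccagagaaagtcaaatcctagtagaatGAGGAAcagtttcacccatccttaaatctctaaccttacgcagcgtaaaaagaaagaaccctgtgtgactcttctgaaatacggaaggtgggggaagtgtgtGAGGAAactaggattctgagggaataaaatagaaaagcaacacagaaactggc
GAGGAA on either strand was found in 3 of the 7 markers with a window (Marco, Cd5l and Vsig4), and in 23.3% of all 32851 windows of that length. TGCTGA on either strand was found in 4 of 7 (Cd5l, Clec4f, Folr2 and Timd4), and in 16.1% of all windows. The Marco match begins 146 bases before the start and those of Vsig4 155 and 53 bases before it. Cd5l carries GAGGAA at 66 bases and TGCTGA at 54 and 46 bases before its start. The motifs do not overlap each other, and Cd163 holds neither in its window. A match is a description of letters and not of a bound site.

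Of 15 genes that most macrophages share, all were tested. With library totals 14 of 15 were called higher, as were 2132 of all 11086 tested features. By limma on the deposited values 7 of the 15 rose and none fell, with a median log2 fold change of 1.34. Led by Cybb, a subunit of the phagocyte oxidase, which rose from 1.72 ± 0.961 to 7.07 ± 0.865 FPKM (log2 1.63, adjusted p = 0.0212), they included the pore-forming protein gene Mpeg1, from 14.4 ± 0.878 to 45.6 ± 4.62 FPKM (log2 1.60, adjusted p = 0.00638). The lysosomal protease gene Ctss rose from 18.5 ± 8.96 to 52.0 ± 4.88 FPKM (limma adjusted p = 0.0384). These 3 also passed without flox/flox replicate 2, as did 6 of the 15 in all. The 3 controls were close to each other for Mpeg1, at 15.3, 13.5 and 14.3 FPKM. The summed FPKM of the 9 markers divided by that of the 15 general genes was 0.579, 0.490 and 0.643 in flox/flox and 0.557, 0.618 and 0.686 in HKO replicates 1 to 3, so that these ranges overlapped while both sums were higher in HKO. Clec4f and Cd5l made up most of the sum of the 9 markers in each library, so ratios of that sum mainly follow these genes.

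Of 9 further genes linked to Kupffer cells, 7 were tested, of which by limma 2 rose and none fell, with a median log2 fold change of 0.77. The log2 fold change was above 0 for 6 of the 7, as for 43.6% of all tested features. It was -0.68 for the other gene, which did not pass. With library totals 5 of 7 were called higher, as were 2132 of all 11086 tested features. Hmox1, which breaks down haem, rose from 8.77 ± 4.57 to 29.3 ± 7.43 FPKM (log2 1.72, limma adjusted p = 0.0370). Slc40a1, the iron exporter, rose from 14.9 ± 2.59 to 26.0 ± 2.77 FPKM (log2 0.77, limma adjusted p = 0.0314). Neither passed without flox/flox replicate 2. Both genes are also expressed by other liver cells.

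Of 10 transcription factor genes of Kupffer cells, 8 were tested, with a median log2 fold change of 0.19 and 5 of 8 above 0. By limma 1 rose and none fell, whereas voom on rebuilt reads called 1 higher and 1 lower. Spi1, which encodes PU.1, was the one that rose by limma, from 1.66 ± 0.906 to 4.87 ± 0.477 FPKM (log2 1.19, limma adjusted p = 0.0285). Spi1 did not pass without flox/flox replicate 2 (limma adjusted p = 0.0598), where none of the 8 was called higher and 1 was called lower. Of 9 niche ligands, 8 were tested and none passed by limma, with 4 at an unadjusted p under 0.05 and 1 called by voom on rebuilt reads. Their median log2 fold change was 0.42, with 8 of 8 above 0, and 5 of 8 without flox/flox replicate 2. With library totals 4 of the 8 were called higher, as were 2132 of all 11086 tested features. The most abundant tested ligand, Gdf2, a bone morphogenetic protein, averaged 6.51 ± 0.969 FPKM in the controls and 8.77 ± 1.40 FPKM in HKO (limma adjusted p = 0.141).

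Of 15 other scavenger and uptake receptors, 12 were tested, of which by limma 3 rose and none fell, while voom on rebuilt reads called 3 higher and 1 lower. Library totals called 6 of the 12 higher, and 2132 of all 11086 tested features. The median log2 fold change of the 12 was 0.25, and 7 of 12 had a value above 0. Cd36, a receptor for fatty acids and oxidised lipids, rose from 5.31 ± 2.34 to 19.7 ± 2.26 FPKM (log2 1.77, limma adjusted p = 0.0187). Itgb2, the shared chain of the leukocyte integrins, rose from 1.70 ± 0.819 to 7.12 ± 0.671 FPKM (log2 1.64, limma adjusted p = 0.0187), and Axl, a receptor for dying cells, from 4.05 ± 1.58 to 10.6 ± 1.68 FPKM. Cd36 and Itgb2 passed without flox/flox replicate 2 and Axl did not.

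Counts for genes of the cells around Kupffer cells depended on the scaling. With the deposited values none of 11 sinusoidal endothelial genes passed by limma or by voom on rebuilt reads, with 1 at an unadjusted p under 0.05 by limma and 2 by voom. Their median log2 fold change was 0.28, with 10 of 11 above 0. Without flox/flox replicate 2 the median of these genes was -0.11, with 4 of 11 above 0. Clec4g, the most abundant of them, averaged 16.5 ± 6.52 FPKM in the controls and 14.8 ± 3.02 FPKM in HKO (limma adjusted p = 0.870), a direction that flips with the scaling. The endothelial genes shared the low value of flox/flox replicate 2, which was the lowest control for 11 of 11, with a median ratio of replicate 1 to replicate 2 of 2.70. The summed level of the 9 markers over that of the 11 endothelial genes was 1.71, 1.21 and 1.43 in flox/flox and 3.05, 2.96 and 3.84 in HKO replicates 1 to 3, without overlap, and is given as a description with no test. With library totals 2 of the 11 endothelial genes were called higher, as were 2132 of all 11086 tested features. The median of the 11 was then 0.65, against 1.71 for the 9 markers.

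With library totals 7 of 10 stellate cell genes were called higher, as were 2132 of all 11086 tested features. The median log2 fold change of the 10 was then 0.76. On the deposited scale 2 of the 10 rose, with a median of 0.43. The 2 were Rgs5, a regulator of G protein signalling, from 6.12 ± 2.28 to 13.3 ± 1.72 FPKM, and Lrat, the enzyme of retinyl ester storage, from 3.07 ± 0.833 to 6.07 ± 1.01 FPKM (limma adjusted p of 0.0447 and 0.0387). Of 9 hepatocyte genes found, Asgr1, a subunit of the asialoglycoprotein receptor, fell from 358 ± 27.5 to 207 ± 5.92 FPKM (limma adjusted p = 0.0200) and the others did not pass, with a median log2 fold change of -0.63. That hepatocyte median was -0.23 with library totals and 0 with quantile normalization, under which no hepatocyte gene passed. Quantile normalization gives each rank the same value in every library. Genes that keep a top rank then read 0 by construction, so that 0 is no measure of their change. Rgs5, Lrat and Asgr1 did not pass without flox/flox replicate 2.

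**Figure D4:**
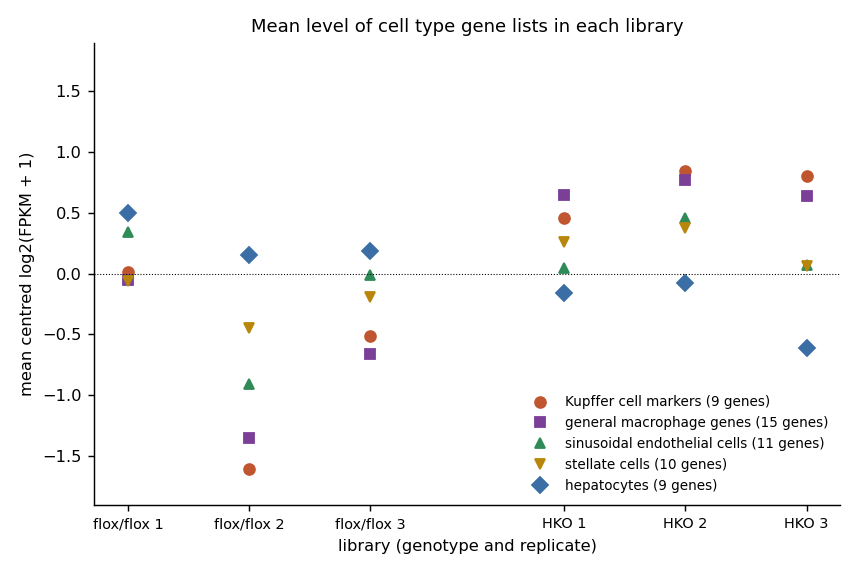
Mean of log2(FPKM + 1), centred on each gene's 6-library mean (vertical axis), for the 9 markers and 4 other gene lists in each library (horizontal axis). Markers and general macrophage genes run close to each other, from -1.60 and -1.35 in flox/flox replicate 2 to 0.84 and 0.77 in HKO replicate 2, and endothelial genes are low in flox/flox replicate 2 alone. The mean of the hepatocyte genes is lower in HKO than in flox/flox libraries on the deposited scale, on which their median log2 fold change was -0.63 against -0.23 with library totals.

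By limma on the deposited values, markers of other leukocytes passed in part, and B, plasma and dendritic cell genes did not. Ccl2, Cd44, S100a9, S100a8, Csf3r, Nkg7, Sox9, Mki67 and Cdk1 averaged under 1 FPKM in the controls. These genes reached the filter through the HKO libraries, so being tested already favoured a rise. Counts of such genes that rose are descriptions only. Of 13 genes of recruited monocytes and macrophages 4 were tested and 3 rose: the chemokine gene Ccl2 from 0.193 ± 0.0863 to 2.82 ± 2.36 FPKM, the adhesion receptor gene Cd44 from 0.779 ± 0.415 to 2.96 ± 0.0885 FPKM and the tetraspanin gene Cd9 from 7.26 ± 2.69 to 16.1 ± 1.25 FPKM (limma adjusted p of 0.0488, 0.0205 and 0.0344). The defining monocyte genes Ly6c2 and Ccr2, named after their values were seen, were under the filter, with Ly6c2 at 0.0238 to 0.148 FPKM in the controls and 0.507 to 0.520 FPKM in HKO, and Ccr2 at 0.0771 to 0.262 FPKM in the controls and 0.650 to 1.62 FPKM in HKO. The summed level of the 13 genes was 27.0 to 33.1 FPKM in flox/flox and 48.3 to 82.7 FPKM in HKO, most of it Spp1 and Cd9, which other liver cells also express.

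Of 9 neutrophil genes 3 were tested, each reaching the filter through its HKO level, and all 3 rose. They were S100a9, S100a8 and Csf3r, with log2 fold changes of 1.52, 1.33 and 0.99 (limma adjusted p of 0.0264, 0.0165 and 0.0194). Their list summed to 1.39 to 1.99 FPKM in flox/flox and 5.74 to 11.9 FPKM in HKO, and Ly6g was at 0 in all 6 libraries. Of 9 T and NK cell genes Nkg7 alone was tested, and rose from 0.268 ± 0.236 to 2.49 ± 1.60 FPKM (limma adjusted p = 0.0412), with the list summing to 0.516 to 1.74 FPKM in flox/flox and 3.10 to 8.74 FPKM in HKO. Of 7 B and plasma cell genes 2 were tested and neither passed (Ighm at 3.56 ± 1.31 and 3.75 ± 1.23 FPKM). The log2 fold change was 0.07 for Ighm and 0.83 for the other gene. That gene averaged 0.456 FPKM in the controls and reached the filter through the HKO libraries. With library totals 1 of the 2 was called higher, as were 2132 of all 11086 tested features. Of 6 dendritic cell genes Clec9a alone was tested and did not pass (1.11 ± 0.139 and 1.60 ± 0.482 FPKM). Of 5 cholangiocyte genes 2 were tested and Sox9 rose from 0.703 ± 0.250 to 2.62 ± 0.317 FPKM. Of 5 proliferation genes 2 were tested and both rose, Mki67 from 0.127 ± 0.0484 to 2.18 ± 0.860 FPKM and Cdk1 from 0.322 ± 0.00963 to 1.74 ± 0.703 FPKM, (limma adjusted p of 0.0193 and 0.0310). Without flox/flox replicate 2, Cd44, S100a8, Sox9 and Mki67 passed and Ccl2, Cd9, S100a9, Csf3r, Nkg7 and Cdk1 did not. The part of these other cells in the levels of Csf1r, Adgre1 and the general macrophage genes was not tested.

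Among 9556 other protein-coding genes, the 6 with the profile nearest to the mean profile of the 9 markers over the 6 libraries were C1qb, Cfp, Sdc3, Ctss, Fcgr4 and Cotl1. Likeness was the root-mean-square difference of centred log2(FPKM + 1) values, which was 0.0721 for C1qb, a subunit of the complement starter C1q, and 0.111 for Cfp, the complement factor properdin. It was 0.113 for the proteoglycan gene Sdc3, 0.120 for Ctss, 0.142 for the antibody receptor gene Fcgr4 and 0.159 for the actin-binding protein gene Cotl1, and 0.902 for the median tested feature. The controls read 59.0, 16.8 and 36.4 FPKM of C1qb and the HKO libraries 75.0, 95.7 and 87.0 FPKM. Of the 9 markers themselves Csf1r and Clec4f lay nearest to the mean profile, at 0.101 and 0.109, and Cd163 and Marco farthest from it, at 0.542 and 0.598.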

How the data were processed

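Liver mRNA was captured on poly-T beads and sequenced in read pairs, per the series text and the labels' protocols. HISAT2 2.0.5 was the aligner, on GRCm38.p6, and featureCounts 1.5.0-p3 the counter, per the submitters' processing notes, which also list DESeq2 1.16.1. The deposited values are the authors' FPKM, with gene lengths. FPKM times length divided by the worth of 1 read in its library was whole, within 0.01 read, for 100% of values, and reads were rebuilt from this. Whether libraries come from separate mice is not stated, and p-values then cover only the spread between these libraries, which may be technical. limma 3.58.1 (R 4.3.3) was run on log2(FPKM + 1), which understates changes of low genes, for features averaging 1 FPKM or more. Genotype was the only term, with an intensity trend, two-sided tests and Benjamini-Hochberg adjustment over all tested features. The fit was tested on simulated reads in which no library was set apart from its group. That test does not cover a control such as flox/flox replicate 2. The 9 markers, the 15 other lists, tests and alternatives were chosen with earlier results of these data known. From each list up to 3 called genes of largest change are named, or the most abundant tested gene. The listed Tf has no row of that name and was not analysed here. One listed gene is counted in its list and not reported here by name. Python 3.11.15, pandas 2.3.3 and scipy 1.17.1 made the other values.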

Additional observations from a re-analysis of the deposited data

How the results depend on the processing

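The count of markers higher in HKO, 3 of 9 as reported, moved to 1 with a pseudocount of 0.1, to 0 with no filter on low values and to 8 both with an equal sum without the 20 highest features and with library totals. It ranged from 0 to 7 when each library was left out in turn, with 7 only without flox/flox replicate 1. The labels do not say whether the replicate numbers pair the libraries. Deviations of same-numbered libraries correlated at -0.00261, -0.0996 and -0.0673, and no library correlated best with its own number. With 3 libraries per group these values cannot settle whether they are paired. With a replicate block 0 of 9 passed and 199 features in all, against 1421. Without flox/flox replicate 2, where 0 passed as reported, 1 passed with a pseudocount of 0.1, 1 with median-of-ratios scaling, 8 with either sum and 2 with voom on rebuilt reads. Of all 11086 tested features 1480 were then called higher with the equal sum and 1182 with library totals. Counts of all features called went from 510 with no filter to 2584 with the equal sum. Of the features called, the share that was higher was 46.4% as deposited and 60.2% with median-of-ratios scaling. It was 62.7% with quantile normalization, 91.4% with the equal sum and 90.9% with library totals. In single-library omissions the counts called were 1454 without flox/flox replicate 1, 368, 30, 60, 120.0 and 406 without flox/flox replicates 2 and 3 and HKO replicates 1 to 3. Each of the 9 markers kept a positive log2 fold change in all 16 alternatives, none was called lower in any, and Cd163 passed in none (0.14 to 0.82 on the log2 scale). Marco passed in 9 of the 16 and Folr2 in 7. Genes that reversed were uncalled throughout. Clec4g turned from -0.09 to 0.060 with quantile normalization, 0.29 with either sum, and to 0.14, 0.03 and 0.07 without flox/flox replicate 1, flox/flox replicate 3 and HKO replicate 1, over a range of -0.44 to 0.14 with single libraries left out. Ighm turned from 0.07 to -0.20, -0.05 and -0.06 without flox/flox replicate 1, HKO replicate 2 and HKO replicate 3, over a range of -0.20 to 0.30. Of the 22 called genes named from the other lists, 19 passed without flox/flox replicate 1, 9 without flox/flox replicate 2, 10 without HKO replicate 3, and 1 in each of the other omissions. The cause of these shifts was not tested. Depth limits Folr2 and Marco most in flox/flox replicate 2, at 5 and 23 reads.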
